A study of Mus musculus with 20 samples.

Results

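The 10 genes described here carry the insulin and insulin-like growth factor (IGF) signal in skeletal muscle. They are the ligands Igf1 and Igf2, the binding protein Igfbp5, the receptors Igf1r and Insr, the adaptors Irs1 and Irs2, the lipid kinase subunit Pik3r1 and the kinases Akt1 and Akt2. Every probe set (a group of short oligos that reads 1 transcript) whose platform gene symbol is one of these names was taken. That gave 20 probe sets of the 22626 on the array that are not controls. Of these 20, 16 were bright enough to be tested, among 13576 tested probe sets in all, and each of the 10 genes had at least 1 of them.

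Total RNA from skeletal muscle of 20 mice was hybridised to 20 arrays, 1 per mouse. The groups hold 5 mice each: trained transgenic mice (TGT), untrained transgenic mice (TGUT), trained wild-type mice (WTT) and untrained wild-type mice (WTUT). The series title says that the transgenic mice over-express MHC-I and that training was endurance exercise, and the comparison asks how that training acts in them. The labels give no construct, promoter or line for the transgene, do not say whether MHC-I is the immune molecule or the slow myosin heavy chain, and name no muscle, strain, age, sex, training protocol, time of sampling or batch.

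Insulin and the IGFs bind receptor tyrosine kinases on the fibre surface. The receptors phosphorylate the Irs adaptors, which recruit phosphoinositide 3-kinase, and the lipid it makes brings the Akt kinases to the membrane. In muscle this chain drives glucose uptake, glycogen and protein synthesis, and it keeps the Foxo transcription factors out of the nucleus. IGF-binding proteins hold the ligands outside the cell.

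Promoter sequences of both Irs adaptors are shown because Irs1 and Irs2 had, after Igfbp5, the widest differences between group means of the 10 genes, and because their promoter windows share letters that the other windows searched lack. RefSeq's GRCm38.p6 promoter table matched 9 of the 10 genes, with 17 windows of 300 bases. The letters CACGTG, the E-box read by basic helix-loop-helix factors, and TGTTTTG, known from the insulin response element of the Irs2 promoter, were searched on both strands after the sequences had been seen. CACGTG occurs in 7.15% of the table's 32851 windows, TGTTTTG in 6.28% and both together in 0.408%. Among the 17 windows, those of Irs1 and Irs2 were the only ones with either. Because the letters were chosen with the sequences in view, the shares are no chance level for these matches. Shown are the 250 bases before each gene's start, 5′ to 3′ on the gene's own strand, with these letters in capitals; Irs1 lies at chr1:82291440-82291689 and Irs2 at chr8:11008930-11009179, both on the minus strand.
Irs1: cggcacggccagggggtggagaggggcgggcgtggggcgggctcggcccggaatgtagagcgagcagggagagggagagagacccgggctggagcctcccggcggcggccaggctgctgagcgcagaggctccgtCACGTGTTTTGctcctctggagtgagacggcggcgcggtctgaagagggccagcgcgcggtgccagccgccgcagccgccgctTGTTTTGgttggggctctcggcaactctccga
Irs2: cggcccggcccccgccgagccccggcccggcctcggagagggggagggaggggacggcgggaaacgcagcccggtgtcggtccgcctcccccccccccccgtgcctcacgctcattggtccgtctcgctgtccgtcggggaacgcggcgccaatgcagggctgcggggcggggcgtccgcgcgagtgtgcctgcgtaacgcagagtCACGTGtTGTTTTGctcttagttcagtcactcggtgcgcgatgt
In Irs1 the E-box begins at base -115 and overlaps a TGTTTTG that begins at -111, and a second TGTTTTG begins at -32. In Irs2 the E-box begins at -44 and TGTTTTG at -37. The sequence TTGTTTAC, which resembles the letters that Foxo factors bind, was found in 1 of the 17 windows, which belongs to Akt1, and in 1.23% of all windows. Akt1 has another window, at chr12:112674227-112674526, that lacks it. The Akt1 stretch with the match lies at chr12:112674885-112675134 on the minus strand, with the match from base -162 in capitals.
Akt1: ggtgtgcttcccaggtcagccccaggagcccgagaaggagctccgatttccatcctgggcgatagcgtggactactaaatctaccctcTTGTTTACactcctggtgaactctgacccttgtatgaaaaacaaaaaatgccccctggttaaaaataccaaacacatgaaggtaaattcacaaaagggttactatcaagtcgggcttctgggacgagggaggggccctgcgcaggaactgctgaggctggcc
A match is a run of letters and not a measured binding site.

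The labelled tissue fitted its markers on every array. The 6 muscle fibre markers (Acta1, Ckm, Tnnt3, Mylpf, Myh4 and Atp2a1) summed to between 94905 and 101550 in intensity, and all were above the filter. Array medians lay between 156 and 174.7. Empty cells were most frequent in WTT mouse wtt-137 (822) and TGT mouse TGT-133 (386). Markers of slow fibres differed by genotype: their summed intensity was 2894 to 4139 in TGT mice, 2809 to 5497 in TGUT mice, 7063 to 14948 in WTT mice and 5013 to 17324 in WTUT mice, and limma called 6 of 7 lower in transgenic mice. The part of fibre type in the gene values below was not tested. In bulk muscle, fewer cells of a type and less RNA per cell cannot be told apart.

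None of the 10 genes passed the test in any of the 7 comparisons. Differences are on the scale of log2(intensity + 66.7), which shrinks the change of dim genes, with the standard error (SE) of limma's moderated fit to all 20 arrays. A probe set was called past an adjusted p of 0.05 (Benjamini-Hochberg over the 13576 tested probe sets). For trained minus untrained mice, averaged over genotypes, limma called 0 of the 10 genes, against 4.99% of all tested probe sets, and at an unadjusted p under 0.05 also 0, against 20.7%. For transgenic minus wild-type mice, averaged over training states, limma called 0 of 10, against 1.23%, and 4 genes were under an unadjusted p of 0.05 (Igf2, Insr, Akt1 and Igfbp5), against 17.3%. Counted over all 16 tested probe sets of the 10 genes, 1 was under an unadjusted p of 0.05 for training (Pik3r1 1425515_at). For the transgene it was 7 of 16. The median difference of the 10 genes was -0.01 for training, with 5 genes above and 5 below 0, and -0.12 for the transgene, with 3 above and 7 below, while the median of all tested probe sets was 0.00 in both.

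The single comparisons gave the same count of 0 called genes by limma. Training in transgenic mice called 0.309% of all probe sets and training in wild-type mice called 0%, and 0 of the 10 genes were under an unadjusted p of 0.05 in either (17.4% and 7.87% of all probe sets). The transgene called 0.0516% in trained mice, where Igf1, Akt1 and Akt2 were under an unadjusted p of 0.05 (3 of 10, against 12.5%). It called 0.11% in untrained mice, where Igf2 and Irs1 were (2 of 10, against 8.12%). The interaction of genotype and training called 0%, and Igf1 and Irs1 were under an unadjusted p of 0.05 (2 of 10, against 2.91%). Counted over the 16 tested probe sets, 2 were under it for training in transgenic mice (Pik3r1 1425515_at and 1425514_at) and 0 for training in wild-type mice. The transgene had 6 of 16 in trained mice and 2 of 16 in untrained mice, and the interaction had 2 of 16. Overlap was counted for the single comparisons of 2 groups that differ in genotype or in training alone. Groups that do not overlap occurred once there, for Igf2 in TGUT against WTUT mice (1 of 10, against 1.44% of all probe sets). For training in transgenic mice, training in wild-type mice and the transgene in trained mice the count was 0 of 10, against 3.23%, 2.84% and 2.55%. The comparisons share samples, so their counts are not independent.

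**Figure D1:**
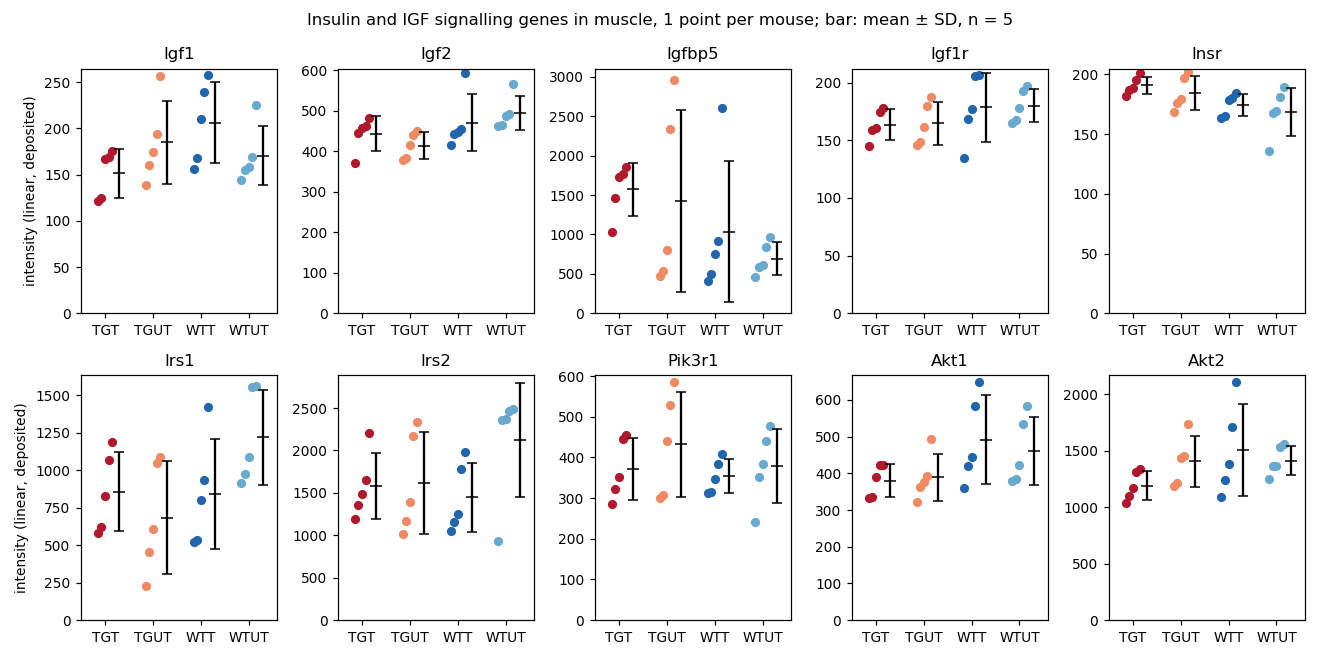
Deposited intensity of the brightest tested probe set of each of the 10 genes, 1 point per mouse, in trained transgenic (TGT), untrained transgenic (TGUT), trained wild-type (WTT) and untrained wild-type (WTUT) mice; bars give mean ± SD (n = 5). The Igfbp5 panel shows TGUT-145 (2965), TGUT-146 (2342) and wtt-137 (2603) far from the other mice of their groups, and the Irs2 panel shows WTUT-138 far below the other 4 WTUT mice.

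**Figure D2:**
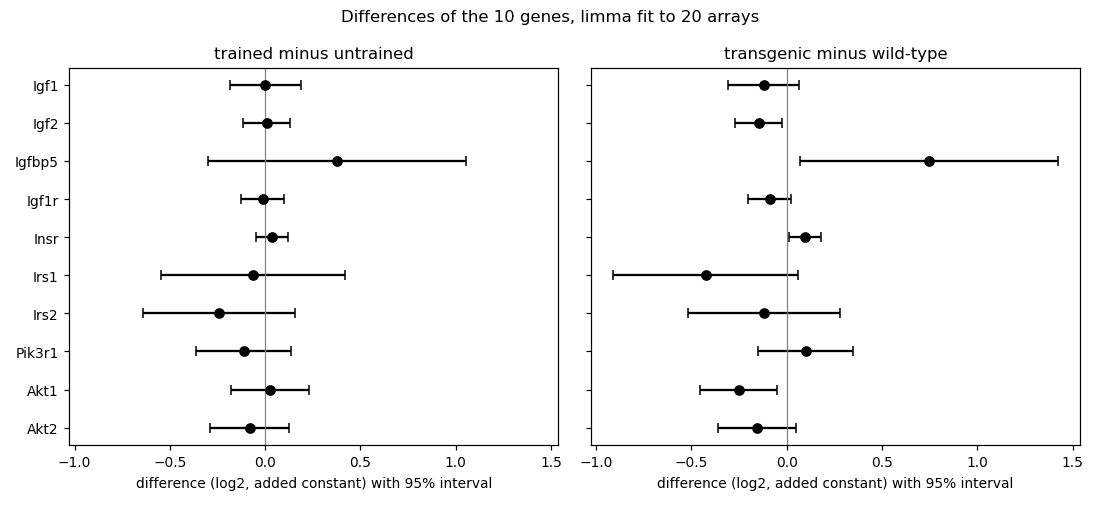
Differences of the 10 genes in log2(intensity + 66.7) with 95% intervals from the limma fit to 20 arrays, trained minus untrained on the left and transgenic minus wild-type on the right. Intervals are widest for Igfbp5 and Irs1 and narrowest for Insr.

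Igf1, the growth factor that muscle both receives from the blood and makes itself, had its lowest mean in TGT mice and its highest in WTT mice. Its probe set 1437401_at read 169, 124, 176, 121 and 167 in TGT mice, 174, 194, 160, 257 and 138.7 in TGUT mice, 156, 168, 258, 240 and 210 in WTT mice, and 159, 169, 155, 226 and 144.3 in WTUT mice. The TGT and WTT groups overlap between 156 and 176, and the 2 lowest mice of all 20 are TGT mice. The difference of the transgene in trained mice was -0.32 ± 0.13 (95% interval -0.58 to -0.05; unadjusted p = 0.0204, limma adjusted p = 0.32). The interaction was -0.39 ± 0.18 (limma adjusted p = 1). Training gave -0.20 ± 0.13 in transgenic mice (95% interval -0.46 to 0.07) and 0.20 ± 0.13 in wild-type mice (interval -0.07 to 0.46; limma adjusted p = 0.463 and 0.771). These have opposite signs, so their average over genotypes was 0.00 ± 0.09.

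The second tested Igf1 probe set, 1452014_a_at, gave -0.23 ± 0.08 for the transgene in trained mice (unadjusted p = 0.00882, limma adjusted p = 0.277). The 2 probe sets correlated with r = 0.77 across the 20 arrays after each group's mean was taken off. The other Igf1 probe set, 1419519_at, lay below the filter, with group means between 91.9 and 99.8. The 6 macrophage markers on the array, whose cells also make Igf1, summed to 1336 to 1665 in TGT mice and to 1561 to 1876 in WTT mice. Of these, 4 were tested, and limma called 0 of 4 for the transgene averaged over training states or for training averaged over genotypes. Their part in the Igf1 values was not tested.

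Igf2, the fetal growth factor whose gene is imprinted and which myoblasts use to differentiate, is read by probe set 1448152_at. It stood at 377, 440, 384, 451 and 416 in TGUT mice, against 461, 493, 567, 465 and 486 in WTUT mice. The highest TGUT mouse lies just under the lowest WTUT mouse. Trained mice overlapped, with 446, 464, 481, 370 and 458 in TGT mice, against 442, 456, 593, 449 and 416 in WTT mice. The difference of the transgene was -0.22 ± 0.08 in untrained mice (unadjusted p = 0.014, limma adjusted p = 0.425) and -0.15 ± 0.06 averaged over training states (95% interval -0.27 to -0.02; limma adjusted p = 0.206). The second Igf2 probe set, 1415931_at, was below the filter, with group means from 75.3 to 92.7. Training averaged over genotypes gave 0.01 ± 0.06 (limma adjusted p = 0.958).

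Igfbp5, an IGF-binding protein that is made in muscle and held in the matrix, had the widest spread of the 10 genes. Its probe set 1452114_s_at read 1773, 1468, 1026, 1727 and 1862 in TGT mice, 536, 476, 2965, 2342 and 808 in TGUT mice, 747, 918, 2603, 414 and 502 in WTT mice, and 843, 462, 968, 581 and 607 in WTUT mice. All 5 TGT mice lie above all 5 WTUT mice. These groups differ in both genotype and training, and the share of all probe sets that separate them was not computed. The TGUT group splits into 2 mice at 2342 or more and 3 at 808 or less, and in the WTT group wtt-137 stands alone. Group means were 1571 ± 338 in TGT mice, 1425 ± 1149 in TGUT mice, 1037 ± 898 in WTT mice and 692 ± 207 in WTUT mice (SD, n = 5 each).

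Averaged over training states, the Igfbp5 difference of transgenic minus wild-type mice was 0.75 ± 0.32, or 1.68-fold (95% interval of the log2 difference 0.07 to 1.42; unadjusted p = 0.0322, limma adjusted p = 0.242). The second probe set, 1422313_a_at, gave 0.44 ± 0.16 (limma adjusted p = 0.15), and the 2 correlated with r = 0.90 within groups. Training averaged over genotypes gave 0.38 ± 0.32, with an interval of -0.30 to 1.05 (limma adjusted p = 0.571). With the glucocorticoid and fasting score described below as a covariate, the transgene difference of Igfbp5 was 0.24 ± 0.18 and its training difference -0.54 ± 0.20 (limma adjusted p = 0.652 and 0.372).

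Neither receptor passed the test. Igf1r (1426565_at), the receptor of Igf1, averaged 163 ± 13.4 in TGT mice, 165 ± 18.4 in TGUT mice, 179 ± 29.9 in WTT mice and 180 ± 14.6 in WTUT mice. Its mice ranged from 134.3 to 207 over all groups, and each group overlapped every other. The difference of the transgene averaged over training states was -0.09 ± 0.05 (95% interval -0.20 to 0.02; limma adjusted p = 0.409), and that of training -0.01 ± 0.05 (interval -0.12 to 0.10).

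Insr (1450225_at), the insulin receptor, averaged 191 ± 7.37 in TGT mice, 184 ± 14.1 in TGUT mice, 174 ± 9.48 in WTT mice and 169 ± 20.3 in WTUT mice. The TGT mice ran from 182 to 201 and the WTT mice from 163 to 184, so the 2 trained groups meet only at their edges. The transgene difference was 0.10 ± 0.04 (interval 0.01 to 0.18; unadjusted p = 0.0245, limma adjusted p = 0.218), the opposite sign to Igf1r. Training gave 0.04 ± 0.04 (interval -0.05 to 0.12). The second probe sets of both receptors (1452108_at and 1421380_at) were too dim to be tested.

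Irs1, the adaptor that passes the receptor signal on to growth and glucose uptake in muscle, had its widest gap between the untrained groups. Its probe set 1423104_at read 456, 605, 1087, 225 and 1049 in TGUT mice, against 1092, 1567, 974, 914 and 1557 in WTUT mice. The 2 highest TGUT mice reach into the WTUT range and the other 3 lie below it. In trained mice the values were 1186, 584, 832, 1068 and 622 in TGT mice, against 933, 1423, 803, 537 and 524 in WTT mice, with full overlap. The transgene difference in untrained mice was -0.91 ± 0.33, which is 1.88-fold lower (95% interval -1.60 to -0.23; unadjusted p = 0.0115, limma adjusted p = 0.405). In trained mice it was 0.06 ± 0.33, and the interaction was 0.98 ± 0.46 (unadjusted p = 0.0485, limma adjusted p = 1).

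Irs2, the adaptor best known from liver and beta cells, is read by probe set 1443969_at. It stood at 1493, 2207, 1361, 1194 and 1649 in TGT mice, 1393, 1166, 2168, 1017 and 2337 in TGUT mice, 1982, 1783, 1161, 1049 and 1256 in WTT mice, and 2489, 2374, 2465, 934 and 2357 in WTUT mice. Of the 5 WTUT mice, 4 lie above every mouse of the other groups, and WTUT-138 lies below every one of them. Training in wild-type mice gave -0.50 ± 0.27 (95% interval -1.06 to 0.07; limma adjusted p = 0.711), and the transgene in untrained mice -0.37 ± 0.27 (limma adjusted p = 0.807). Without WTUT-138 these differences were -0.76 ± 0.23 and -0.64 ± 0.23 (limma adjusted p = 0.319 and 0.431), and without TGUT-146 the second was -0.23 ± 0.27. Within groups, Irs1 and Irs2 correlated with r = 0.52 over the 20 arrays, as a description of arrays that share their RNA.

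Pik3r1, which encodes the p85 regulatory subunit that docks phosphoinositide 3-kinase on the Irs proteins, has 3 tested probe sets that did not read alike. The brightest, 1451737_at, averaged 372 ± 75.4 in TGT mice, 432 ± 128.5 in TGUT mice, 354 ± 42.2 in WTT mice and 379 ± 91.2 in WTUT mice, with a transgene difference of 0.10 ± 0.12 (limma adjusted p = 0.691). Probe set 1425515_at read 105, 131.8, 148, 128.8 and 121 in TGT mice, 253, 242, 111, 171 and 197 in TGUT mice, 224, 166, 104, 288 and 293 in WTT mice, and 266, 263, 182, 242 and 268 in WTUT mice. All 5 TGT mice lie below all 5 WTUT mice, while TGUT-145 and wtt-137 lie within the TGT range. The share of all probe sets that separate TGT from WTUT mice was not computed.

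For Pik3r1 1425515_at the transgene difference was -0.38 ± 0.12 (unadjusted p = 0.00644, limma adjusted p = 0.127) and the training difference -0.30 ± 0.12 (unadjusted p = 0.0279, limma adjusted p = 0.177). Its transgene difference in trained mice was -0.49 ± 0.18 (limma adjusted p = 0.287). Training in transgenic mice gave -0.41 ± 0.18 (limma adjusted p = 0.243). Probe set 1425514_at gave -0.12 ± 0.07 and -0.13 ± 0.07 for the transgene and for training (limma adjusted p = 0.357 and 0.287). For the transgene in trained mice and training in transgenic mice it gave -0.22 ± 0.09 each (limma adjusted p = 0.352 and 0.214). The brightest, 1451737_at, gave 0.05 ± 0.17 and -0.16 ± 0.17 there. Within groups, 1425515_at and 1425514_at correlated with r = 0.67, but 1451737_at correlated with them with r = -0.07 and 0.04. All 3 cite the same mRNA record in the platform annotation. Which of them follows the Pik3r1 transcript was not tested, so the gene's direction for the transgene is unsettled.

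**Figure D3:**
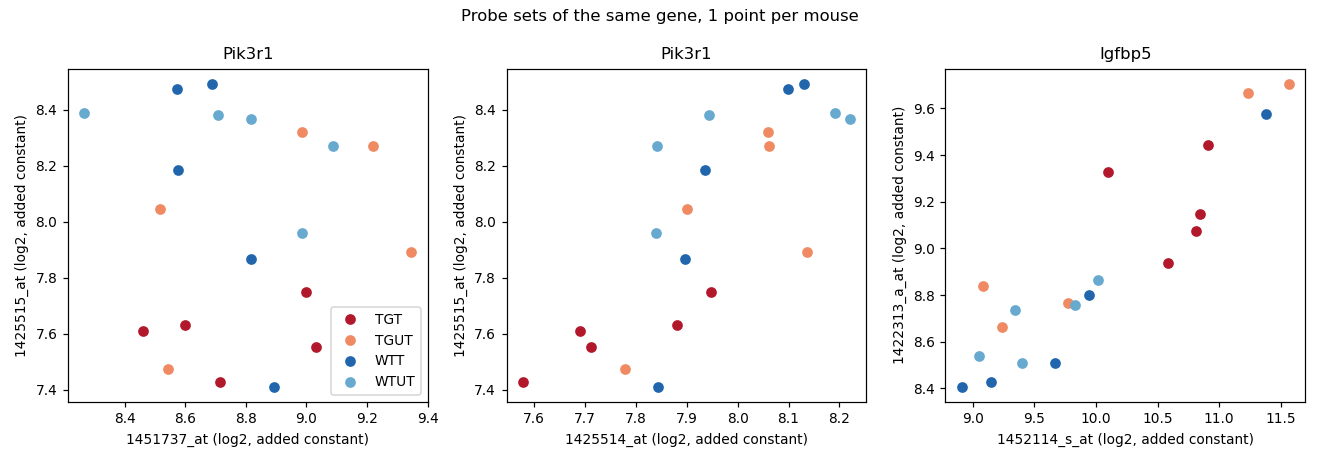
Log2(intensity + 66.7) of probe sets of the same gene plotted against each other, 1 point per mouse and coloured by group. Pik3r1 1451737_at shows no relation to 1425515_at (r = -0.07 within groups), while the 2 Igfbp5 probe sets follow each other (r = 0.90 within groups) with the same mice at the top.

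Akt1 and Akt2 encode the kinases at the end of the chain, of which Akt2 is the form most tied to glucose uptake. Akt1 (1416657_at) averaged 380 ± 44.6 in TGT mice, 389 ± 63.8 in TGUT mice, 492 ± 121 in WTT mice and 461 ± 92.9 in WTUT mice. The wild-type groups reach higher, to 650 in WTT mice and 584 in WTUT mice, against 422 in TGT mice and 493 in TGUT mice, and all 4 groups overlap. The transgene difference of Akt1 was -0.25 ± 0.10 (95% interval -0.46 to -0.05; unadjusted p = 0.0176, limma adjusted p = 0.191). The other probe set, 1425711_a_at, gave -0.09 ± 0.07 (limma adjusted p = 0.513), and the 2 correlated with r = 0.83 within groups.

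Akt2 (1424480_s_at) averaged 1190 ± 130 in TGT mice, 1405 ± 223 in TGUT mice, 1509 ± 408 in WTT mice and 1413 ± 131.98 in WTUT mice. The TGT mice ran from 1036 to 1334 and the WTT mice from 1093 to 2113, so the groups overlap. The transgene difference in trained mice was -0.30 ± 0.14 (unadjusted p = 0.0466, limma adjusted p = 0.394). It was -0.17 ± 0.12 without WTT-144 and 0.00 ± 0.11 with the glucocorticoid and fasting score described below as a covariate. For training averaged over genotypes, Akt1 gave 0.02 ± 0.10 (interval -0.18 to 0.23) and Akt2 -0.08 ± 0.10 (interval -0.29 to 0.12). A p that misses the threshold does not show equal levels, and the intervals give what the 20 arrays allow.

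The groups could be ordered by mean for each gene, but neighbours in that order mostly lay within their spread. On the log2 scale the span between the highest and the lowest group mean was 1.12 for Igfbp5, 0.91 for Irs1 and 0.50 for Irs2. It was 0.32 for Igf1, 0.30 for Akt1 and Akt2, 0.22 for Igf2, 0.21 for Pik3r1, 0.13 for Insr and 0.10 for Igf1r.

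Mice of the same group differed from each other along shared lines, and 2 array-wide readings moved with the genes. The first is a score of 10 glucocorticoid- and fasting-responsive genes (Fkbp5, Tsc22d3, Klf15, Per1, Zbtb16, Sgk1, Mt2, Pdk4, Fbxo32 and Cebpd), the mean deviation of their log2 values on each array. It averaged -0.51 ± 0.19 in TGT mice, 0.26 ± 0.40 in TGUT mice, 0.05 ± 0.47 in WTT mice and 0.21 ± 0.27 in WTUT mice (SD, n = 5), and limma called 0 of the 10 genes for training or the transgene. The second is the log2 ratio of Gapdh control probe sets at the 3′ end over those at the 5′ end, by which RNA breakage is judged, and it averaged 0.01 in each group and ran from -0.06 to 0.10 over the arrays. Each of the 10 genes was set against both readings after group means were taken off, which makes 20 relations, with two-sided p-values from permutation of arrays within groups, adjusted over the 20.

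Igfbp5 ran opposite to the glucocorticoid and fasting score (Pearson r = -0.87, permutation p = 0.00013, adjusted 0.0026; Spearman rho = -0.82, permutation p = 0.00027, adjusted 0.0018). Akt2 ran with it (r = 0.80, permutation p = 0.00052, adjusted 0.00347; rho = 0.80, permutation p = 0.00026, adjusted 0.0018). Igf1r did too (r = 0.77, permutation p = 0.00157, adjusted 0.00628; rho = 0.69, permutation p = 0.0035, adjusted 0.014). Without wtt-137 and TGUT-145, the arrays farthest from the median of the score, r was -0.74 for Igfbp5, 0.75 for Akt2 and 0.61 for Igf1r. The other 7 genes had an adjusted p of at least 0.178 for Pearson's r with the score. The score itself follows the first principal component of the arrays, which holds 32.4% of the variance of the tested probe sets without empty cells and has an arbitrary sign (r = -0.91 after group means were taken off). Igf1r, Akt2 and Igfbp5 follow that component with r = -0.87, -0.86 and 0.85, so their relation to the score is not shown to be particular to its 10 genes.

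The Gapdh ratio moved with Pik3r1 1451737_at (r = 0.78, permutation p = 0.00027, adjusted 0.0027; rho = 0.79, permutation p = 0.00025, adjusted 0.0018). It moved with Igf1 (r = 0.75, permutation p = 0.00084, adjusted 0.0042; rho = 0.74, permutation p = 0.00083, adjusted 0.00415). Igf2 was weaker (r = 0.61, permutation p = 0.0116, adjusted 0.0331; rho = 0.59, permutation p = 0.0149, adjusted 0.0426), and Irs2 was opposite (r = -0.65, permutation p = 0.01, adjusted 0.0331; rho = -0.60, permutation p = 0.0148, adjusted 0.0426). Without WTUT-138 and wtt-137, r was 0.79 for Pik3r1, 0.65 for Igf1, 0.66 for Igf2 and -0.50 for Irs2. The ratio itself follows the second principal component, which holds 19.9% of the variance and has an arbitrary sign (r = -0.80 after group means were taken off). Pik3r1, Igf1 and Irs2 follow that component with r = -0.88, -0.63 and 0.64, and Igf2 with r = -0.29. The relations of Pik3r1, Igf1 and Irs2 are thus not shown to be particular to the Gapdh ratio. The labels give no batch, so no value within batches can be had. What sets either reading was not tested.

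**Figure D4:**
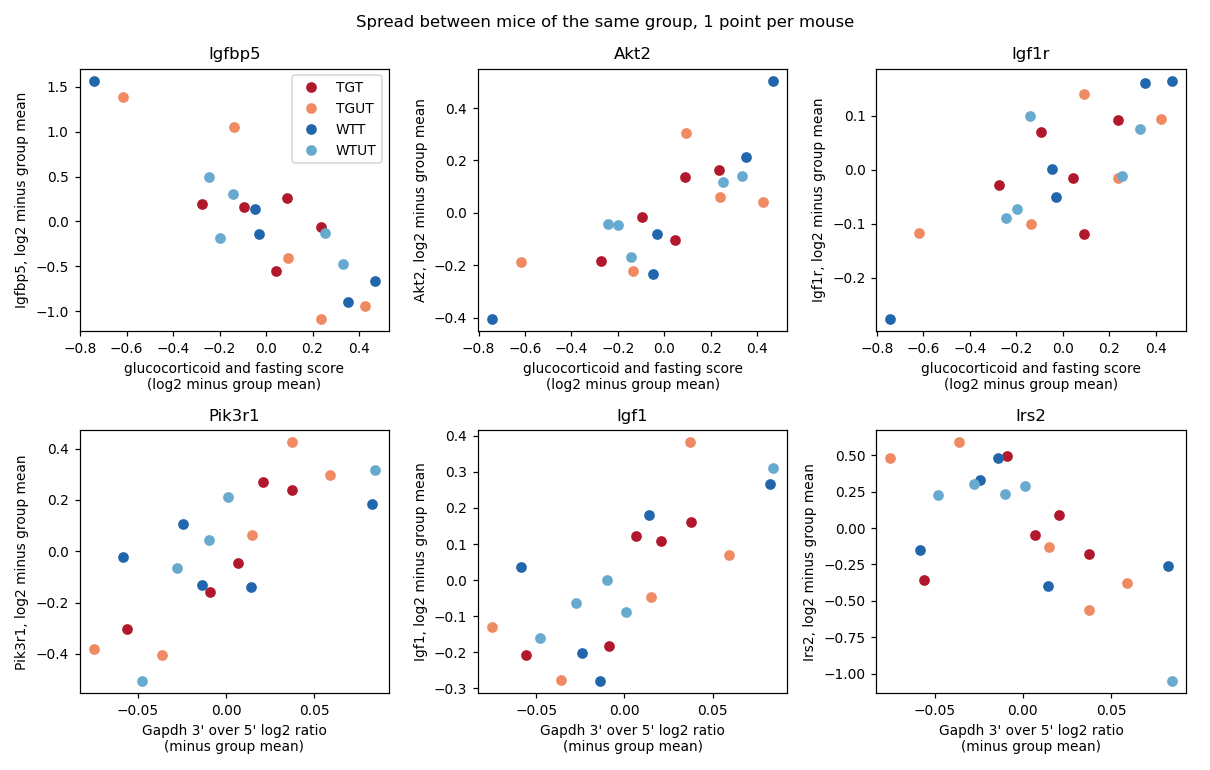
Log2 values of 6 genes minus their group means, 1 point per mouse, against the glucocorticoid and fasting score (upper row) or the Gapdh 3′ over 5′ log2 ratio (lower row), also minus group means. Igfbp5 runs opposite to the score (r = -0.87) while Akt2 and Igf1r climb (r = 0.80 and 0.77); Pik3r1 and Igf1 climb with the Gapdh ratio (r = 0.78 and 0.75) and Irs2 runs the other way (r = -0.65).

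Among themselves, after group means were taken off, the genes formed a few pairs over the 20 arrays. Igf1r ran with Akt2 (r = 0.72), Igf1 with Pik3r1 (r = 0.71) and Akt1 with Akt2 (r = 0.63). Opposite pairs were Igf1 and Irs2 (r = -0.79), Igf1r and Igfbp5 (r = -0.73), and Akt2 and Igfbp5 (r = -0.68). These are descriptions of arrays that share their RNA and scaling.

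The genes most like each of the 3 widest members were named by the Pearson r of log2 values over the 20 arrays among 8485 genes. For Igfbp5 they were Casq1, the calcium buffer of the sarcoplasmic reticulum (r = 0.96, and 0.95 after group means were taken off), Jph2, which ties that store to the surface membrane (0.95), the anchoring protein Ank1 (0.94), Sypl2, a protein of the triad (0.93), and the translation factor Eif4e (0.92). For Irs1 they were Prkar1a, a regulatory subunit of protein kinase A (0.86), Sacm1l (0.84), the RNA-binding protein gene Elavl1 (0.84), Ctbp2 (0.82) and the adaptor Crk (0.80). For Irs2 they were the early-response gene Junb (0.86), Impact (0.84), Rai14 (0.81), the phosphate carrier Slc20a1 (0.79) and Bach1 (0.78). Pik3r1 1451737_at, looked up after its values were seen, was closest to Pdzk1ip1, Krt84, Nsmf, Gstm4 and Duoxa1 (r from 0.96 to 0.97).

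Of 79 other genes of the pathway, listed by role, 58 were tested, 10 were on the array but too dim and 11 had no probe set under their own symbol. Limma called 5 of the 58 for training averaged over genotypes, 3 higher and 2 lower, against 2.41% of all tested probe sets higher and 2.59% lower. For the transgene averaged over training states it called 1, which was lower (against 0.906%), and the same gene in untrained mice (against 0.0958% lower and 0.0147% higher). It called 0 in the other 4 comparisons. Genes under an unadjusted p of 0.05 were also counted, with the share of all tested probe sets in brackets. Averaged over the other factor, training had 18 of the 58 (20.7%) and the transgene 14 (17.3%). The single training comparisons had 4 for wild-type mice (7.87%) and 16 for transgenic mice (17.4%). The transgene had 9 in trained mice (12.5%) and 7 in untrained mice (8.12%), and the interaction had 3 (2.91%). Groups did not overlap for 2 of the 58 genes in training of wild-type mice (Igfbp7 and Grb14, against 2.84% of all tested probe sets). The count was 2 for training in transgenic mice (against 3.23%). For the transgene it was 1 in untrained mice (Phlda3, against 1.44%) and 0 in trained mice (against 2.55%). The medians of the 58 genes were 0.00 for training and -0.01 for the transgene.

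The 3 that were higher after training act as brakes or binding proteins. Grb14, an adaptor that blocks the insulin receptor's kinase, read 189, 194, 132.7, 212 and 175.4 in TGT mice, against 117, 118, 176, 133.98 and 160 in TGUT mice, and 206, 233, 178, 204 and 172 in WTT mice, against 169, 133.5, 138.4, 129.1 and 164 in WTUT mice. The wild-type groups do not overlap, and in transgenic mice TGT-133 and TGUT-145 cross over. The Grb14 difference was 0.28 ± 0.07 (limma adjusted p = 0.0225), and with 1 array left out in turn it was called in 19 of 20 fits, the exception being the fit without TGT-140 (adjusted p = 0.051).

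Igfbp7, which binds IGFs weakly and is made by vessels and stroma, averaged 933 in TGT mice, 871 in TGUT mice, 973 in WTT mice and 773 in WTUT mice, a training difference of 0.20 ± 0.06 (limma adjusted p = 0.0431). Its WTT mice (843 to 1168) lie above its WTUT mice (692 to 818). The 6 fibroblast markers on the array summed to 5510 to 7964 in TGT mice and 5998 to 7358 in TGUT mice. They summed to 5423 to 7075 in WTT mice and 3870 to 6441 in WTUT mice. Of the 5 tested, limma called 1 higher for training, with a median difference of 0.27. The 5 endothelial markers summed to 1133 to 1392 in TGT mice and 1231 to 1574 in TGUT mice. They summed to 1380 to 1575 in WTT mice and 1210 to 1867 in WTUT mice. Of the 4 tested, limma called 0 for training, with a median difference of -0.10. The part of either cell type was not tested. Inppl1, the lipid phosphatase SHIP2 that removes the product of phosphoinositide 3-kinase, averaged 629 in TGT mice, 475 in TGUT mice, 571 in WTT mice and 511 in WTUT mice (0.25 ± 0.07, limma adjusted p = 0.0402).

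Foxo3 and Eif4ebp1 were the 2 genes called lower after training. Foxo3, a transcription factor that Akt inactivates, averaged 300.4 ± 52.4 in TGT mice, 559 ± 183 in TGUT mice, 462 ± 151 in WTT mice and 571 ± 74.5 in WTUT mice, a training difference of -0.52 ± 0.14 (limma adjusted p = 0.0427). Eif4ebp1, the translation repressor that mTOR releases, averaged 1404 ± 266 in TGT mice, 2540 ± 888 in TGUT mice, 2228 ± 745 in WTT mice and 2918 ± 353 in WTUT mice, a difference of -0.60 ± 0.17 (limma adjusted p = 0.0436). TGUT-145 and wtt-137 were the lowest of their groups for both genes. With 1 array left out in turn, Igfbp7 was called in 4 of the 20 fits, Inppl1 and Foxo3 in 8 each and Eif4ebp1 in 6. All 5 training calls were lost when the glucocorticoid and fasting score entered the fit. That score averaged -0.51 in TGT mice against 0.26 in TGUT mice, and it follows the first principal component. A fit with it thus also takes out group differences that it shares. Why the calls were lost was not tested.

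Phlda3, which competes with Akt for membrane lipid, was the 1 pathway gene called for the transgene. It read 510, 606, 793, 585 and 856 in TGT mice, 426, 327, 503, 407 and 608 in TGUT mice, 1202, 835, 1159, 812 and 955 in WTT mice, and 1157, 777, 1552, 1160 and 1105 in WTUT mice. All TGUT mice lie below all WTUT mice, and the trained groups meet between 812 and 856. The transgene difference was -0.87 ± 0.12, or 1.83-fold lower (limma adjusted p = 0.0011), and the call was kept with each of the 20 arrays left out in turn.

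**Figure D5:**
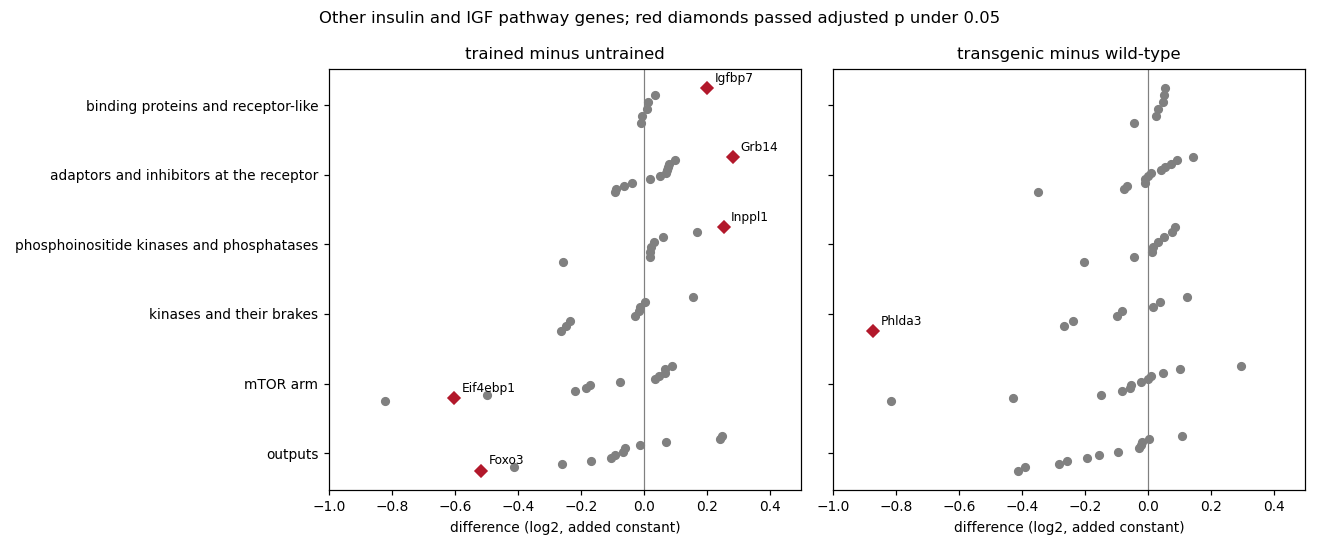
Log2 differences of the 58 tested other pathway genes by role, trained minus untrained on the left and transgenic minus wild-type on the right, 1 point per gene; red diamonds mark limma adjusted p under 0.05. Training has 5 called genes, Grb14, Igfbp7 and Inppl1 to the right and Foxo3 and Eif4ebp1 to the left, and the transgene has Phlda3 alone.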

How the data were processed

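RNA of 20 mouse muscles was read on 20 arrays, 5 per group. The authors deposited linear intensity values, 1 for each probe set, already scaled between arrays as read from the values (array medians 156 to 174.7). How they summarised and scaled the probes is not given in the sources used here. Groups came from titles and source names, because a free-text description that calls all samples trained and transgenic conflicts with both. The table has 1745 empty cells, treated as missing.

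Log2 values were computed from the deposited intensities after adding 66.7, the table's 20th percentile, without further scaling. After 64 control probe sets were left out, a filter at the 40th percentile of mean log2 value (7.59, about 126 in intensity) kept 13576 of 22626. Platform symbols were checked in a RefSeq gene table of GRCm38.p6. A gene is read from its brightest tested probe set, which was used for every named gene unless another probe set is given. Group means were fitted with limma 3.58.1 in R 4.3.3 (moderated variance with a trend, 16 residual and 3.47 prior degrees of freedom, two-sided, 95% intervals), with 7 contrasts and Benjamini-Hochberg adjustment within each. The fit was tested on simulated data. Arrays have no counting depth, so their number limits the precision. The labels do not say whether mice came from separate litters.

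The 10 genes, the pathway and marker lists and the tests were chosen with earlier results of these data known. Named are the 10 genes with all probe sets, the called genes of the pathway list, and the 5 genes most like each of the 3 members with the widest group means. Alternatives were quantile normalization, median centring, other added constants and filters, no trend, robust variance, array weights, other probe set choices, the compared groups alone and each array left out. Covariates for the glucocorticoid and fasting score or the Gapdh ratio, the fit without the 2 arrays with most empty cells, and the alternatives for other pathway genes were chosen after seeing the data. The glucocorticoid and fasting score differs between groups, so fits with it also take out group differences that it shares.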

Additional observations from a re-analysis of the deposited data

Results flagged for a closer look

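Each gene's probe sets were checked for a mouse that stands apart from the others of its group by Dixon's test, and 7 of 80 sets of values were picked out, where chance picks out about 1 in 20, or 4 of 80. Irs2 read 934 in WTUT-138, against 2357 to 2489 in the other WTUT mice, and Igf1 1452014_a_at read 176 in the same mouse, against 135.9 to 146.1 in the others. WTUT-138 has the highest Gapdh 3′ over 5′ log2 ratio of the 20 arrays, 0.10, and the part of that reading was not tested.

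Igf2 1448152_at read 370 in TGT-140, against 446 to 481 in the other TGT mice, and 593 in wtt-137, against 416 to 456 in the other WTT mice. The dim Igf2 probe set 1415931_at read 173 in TGT-133, against 64.7 to 86.0 in the others. The arrays of wtt-137 and TGT-133 have the most empty cells, 822 and 386, and the part of these was not tested. The dim Insr probe set 1421380_at read 33.1 in TGT-132, against 39.1 to 41.4 in the other TGT mice. Pik3r1 1425515_at read 182 in WTUT-136, against 242 to 268 in the other WTUT mice.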

How the results depend on the processing

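Each of the 70 combinations of gene and comparison was refitted under up to 35 settings, 20 of them with 1 array left out. The count of called members was 0 in each except with array weights, where Igfbp5 passed for training in transgenic mice (1 gene; 1.06 ± 0.36, limma adjusted p = 0.0489). The sign was the same in every setting for 34 of the 70. For training averaged over genotypes, the signs of Igfbp5 and Akt2 turned only with the glucocorticoid and fasting score as a covariate (to -0.54 and 0.17). Those of Igf1r (to 0.11), Igf1 and Igf2 turned there too, but their main differences were -0.01, 0.00 and 0.01. Their signs turned in 7 of 33, 18 of 33 and 9 of 34 settings. For the transgene, Igfbp5 reached an adjusted p of 0.0519 in trained mice with array weights, and averaged over training states 0.0676 without wtt-137, in a range up to 0.652. Igf2 reached 0.081 averaged over training states with array weights, in a range up to 0.319. The other pathway genes moved more. For training averaged over genotypes the count was 2 with median centring, 1 with no filter, 19 with array weights, 1 without wtt-137 and TGT-133 together and 0 with the glucocorticoid score. It ran from 0 to 11 with 1 array left out, lowest without TGT-140 and highest without TGUT-145. Igfbp7 was called in 4 of these 20 fits, Inppl1 and Foxo3 in 8 each and Eif4ebp1 in 6, and the fits without TGUT-145, TGUT-146, WTT-141 or WTT-144 called all of them. Training in wild-type mice gave 2 with array weights. Training in transgenic mice gave 1 with quantile normalization, 17 with array weights, 1 with the Gapdh ratio and 0 to 5 with 1 array left out (highest without TGUT-145). The transgene gave 1 to 2 averaged over training states with 1 array left out (2 without wtt-137), 0 in untrained mice with the compared groups alone, and in trained mice 5 with array weights and 0 to 1 with 1 array left out (1 without wtt-137). The cause was not tested. No paired analysis was possible because no 2 groups share mouse numbers. Signal over background limits Igf1, Igf1r and Insr, which lie near the filter.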
